A study of Mus musculus with 15 samples.

Results

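The cell cycle and proliferation genes described here are a set of 39 named genes, chosen by symbol from the 16330 genes listed in a liver RNA-seq table of normalized counts. All 39 were listed, and 39 of 39 passed the filter on low values that left 13570 genes for testing. They were divided by role into 3 genes of G1 entry, 18 genes of S phase and 18 genes of G2 and mitosis, the last called mitotic for short. The 15 mouse liver libraries fell into 4 groups: luciferase with water (5 libraries, M1 to M5), LbNOX with water (4, M6 to M9), luciferase with ethanol (3, M10 to M12) and LbNOX with ethanol (3, M13 to M15). Luciferase is a light-producing enzyme and served as the control construct, and LbNOX is an NADH oxidase of bacterial origin, which regenerates NAD+ and forms water. Livers were collected 6 h after a gavage of ethanol or of water as its control. The labels name neither strain, age nor sex, nor how the enzymes were delivered or in which cells, and they do not say that each library came from its own animal, so p-values measure the spread between these libraries. The sample titles name luciferase and LbNOX whereas the series' own design text names wild-type or ChREBP mice, so the ChREBP genotype is not settled here.

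A cell that divides passes from G1, when D-type cyclins with Cdk4 release E2F factors, into S phase, when origins licensed by Cdc6, Cdt1 and the MCM helicase fire and ribonucleotide reductase supplies deoxynucleotides. It then enters G2 and mitosis, driven by cyclin B with Cdk1, the Polo and Aurora kinases and, at the end, by protein destruction through the anaphase-promoting complex. Hepatocytes of the adult liver are mostly quiescent, and the S-phase and mitotic genes are each known to be transcribed together as groups in cycling cells. In bulk liver, fewer cells in cycle and less RNA per cycling cell cannot be told apart.

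Promoter sequences are shown for 6 of the 9 members with an adjusted p below 0.05 between ethanol and water in luciferase livers. The S-phase and mitotic groups are known to be read from different promoter elements. Ccnb1 was left out because its stretch held more than 30 exonic bases, and Mcm5 and Tpx2 are not printed either. RefSeq windows on GRCm38.p6, of 300 bases (250 before to 50 after the start), were matched for 30 of the 39 members: 14 mitotic, 15 S-phase and 1 of G1 entry. Then 3 elements were searched on both strands: the CHR (cell cycle genes homology region, spelled TTTGAA and also TTCGAA here), the CCAAT box (named by its letters) and an E2F word. The E2F word was spelled TTCCCGC in its first form, TTCGCGC in another, TTGCCGC in the third and TTGGCGC in the last. The lines give up to 150 bases before the RefSeq start, read 5′ to 3′ on the gene's strand, and capitals mark any of these elements, with ATTGG for a CCAAT box, TTCAAA for a CHR and GCGGGAA for an E2F word that lie on the other strand.
Rrm2 (chr12:24708104-24708253, plus strand): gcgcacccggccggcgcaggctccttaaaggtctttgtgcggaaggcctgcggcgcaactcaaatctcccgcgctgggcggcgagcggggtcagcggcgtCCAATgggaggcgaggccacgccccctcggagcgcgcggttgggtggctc
Cdc6 (chr11:98908001-98908150, plus strand): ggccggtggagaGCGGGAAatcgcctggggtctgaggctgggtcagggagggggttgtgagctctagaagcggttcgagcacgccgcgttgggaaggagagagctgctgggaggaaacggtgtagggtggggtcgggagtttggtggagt
Cdc20 (chr4:118437344-118437493, minus strand): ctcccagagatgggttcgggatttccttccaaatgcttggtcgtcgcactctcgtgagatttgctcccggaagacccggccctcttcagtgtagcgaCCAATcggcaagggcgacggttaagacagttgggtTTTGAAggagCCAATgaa
Plk1 (chr7:122159285-122159434, plus strand): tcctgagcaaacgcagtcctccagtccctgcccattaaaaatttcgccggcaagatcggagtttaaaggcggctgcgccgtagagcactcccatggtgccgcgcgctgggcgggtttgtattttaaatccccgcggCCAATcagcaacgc
Ube2c (chr2:164769779-164769927, plus strand): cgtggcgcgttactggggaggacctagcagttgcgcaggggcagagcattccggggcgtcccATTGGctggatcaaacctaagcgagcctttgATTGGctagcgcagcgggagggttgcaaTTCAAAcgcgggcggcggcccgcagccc
Cdt1 (chr8:122567865-122568014, plus strand): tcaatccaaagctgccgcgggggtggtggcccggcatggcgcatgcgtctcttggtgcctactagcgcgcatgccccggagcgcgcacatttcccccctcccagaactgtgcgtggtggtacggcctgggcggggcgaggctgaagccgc
In this stretch Cdc20 and Ube2c each held a CHR and a pair of CCAAT boxes, Plk1 and Rrm2 each held a CCAAT box, Cdc6 held an E2F word, and Cdt1 held none of these elements. The Cdc6 stretch lies before the start of the RefSeq window but wholly inside the GENCODE gene, with 150 of its 150 bases in the gene and 0 in an exon. The stretches of Rrm2, Cdc20 and Ube2c reach 13, 9 and 30 bases into an annotated first exon. The remaining matches of these 6 genes lay outside the printed stretch. Plk1 held a CHR at bases 31 to 36 after the start, Cdt1 held E2F words at bases 19 to 25 and 34 to 40, Rrm2 held an E2F word at bases -235 to -229, and Ube2c held 4 more CCAAT boxes between bases -228 and -151. Over the whole windows, a CHR was found in 12 of 14 mitotic and 2 of 15 S-phase members (Mcm2 and Mcm7), beside 19.2% of all 32851 windows. A CCAAT box was found in 13 of 14 mitotic and 9 of 15 S-phase members, beside 37.4% of all windows. An E2F word was found in 9 of 15 S-phase and 3 of 14 mitotic members (Ccnb1, Cdk1 and Mki67), beside 9.57% of all windows. Ccnb1 held no CHR, and its E2F word at bases -102 to -96 overlapped a CCAAT box at bases -99 to -95. Members were counted if any of their windows held the element, whereas the shares are over single windows. The counts and shares are thus not on the same footing. A match is a description of these letters, not a site in use, and no match says only that the letters are not in this window.

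Depth was 14.5 to 23.7 M reads per library in the luciferase water group, 13.7 to 20.6 in LbNOX water, 12.2 to 14.4 in luciferase ethanol and 10.6 to 15.7 in LbNOX ethanol. Replicate pairs differed well beyond sampling noise, the lowest chi-square of their counts being 24.98 per degree of freedom, so none was a library deposited again. Hepatocyte markers (albumin and 7 others) summed to between 513836 and 1010030 normalized counts in every library, and all 8 were listed, as the liver label would have it; none of the 8 was called in any comparison. Libraries M3, M8 and M15 had the highest summed endothelial markers, 3196, 3477 and 3080.

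Ethanol against water in luciferase livers was the comparison with the most cell cycle genes called. Of the 18 mitotic genes 5 were called lower after ethanol and none higher. The S-phase genes were mixed: Rrm2 and Cdt1 rose while Cdc6 and Mcm5 fell, and none of the 3 G1 entry genes was called. In all, 9 of 39 members had an adjusted p below 0.05 in limma, 2 higher and 7 lower, beside 7.75% of all 13570 genes tested (4.62% higher and 3.13% lower). The median log2 fold change was -0.84 over the mitotic genes, -0.27 over the S-phase genes and -0.30 over the G1 entry genes, beside 0.01 over all genes. All 18 mitotic genes had a log2 fold change below 0, from -1.20 to -0.38, and 16 of the 18 had an unadjusted p below 0.05, as did 6 of the 18 S-phase genes and 21.1% of all genes.

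**Figure D1:**
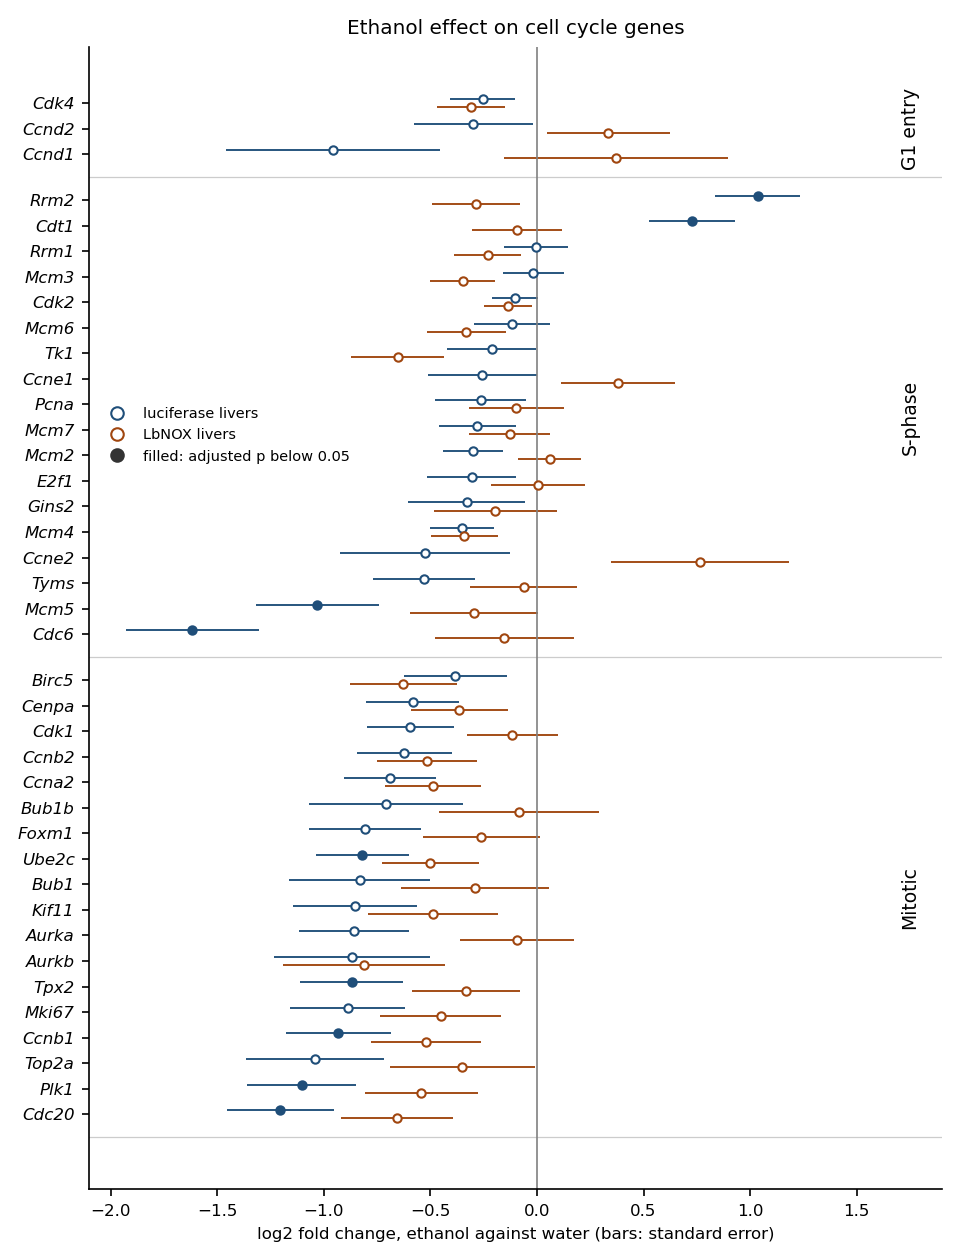
Log2 fold change of each of the 39 genes, ethanol against water, in luciferase (blue) and LbNOX (orange) livers; points are limma estimates, bars are standard errors and filled points have an adjusted p below 0.05. All 18 mitotic genes lie below 0 in both constructs, and the filled points are the 9 genes called in luciferase livers.

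Rrm2 encodes the regulated small subunit of ribonucleotide reductase, the enzyme that makes deoxynucleotides for DNA synthesis, at chr12:24708241-24714146 on GRCm38. Its normalized counts were 3033, 3645, 2126, 2029 and 2178 after water and 5099, 4716 and 5800.4 after ethanol in luciferase livers. The ethanol libraries were all above the water libraries, and the groups did not overlap. Rrm2 rose 2.05-fold (log2 fold change 1.03 ± 0.20, standard error, adjusted p = 0.00500), from 2602 ± 709 (SD, n = 5) to 5205 ± 549.9 (SD, n = 3). Its partner Rrm1, the large catalytic subunit, had a log2 fold change of 0.00 ± 0.15 and was not called. Of the other nucleotide synthesis members, Tyms (thymidylate synthase) had -0.53 ± 0.24 and Tk1 (thymidine kinase) -0.21 ± 0.21 on the log2 scale, neither called, so among these 4 genes only Rrm2 passed the test.

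The licensing factors moved in opposite directions. Cdc6, which loads the MCM helicase onto origins (chr11:98907801-98923940), stood at 100.1, 83.6, 88.1, 37.5 and 58.0 normalized counts after water and 25.4, 15.2 and 27.4 after ethanol. Every ethanol library was below every water library, the nearest pair being M12 and M4, and Cdc6 fell 3.07-fold (log2 -1.62 ± 0.31, adjusted p = 0.00524). Cdt1, its partner in loading the helicase (chr8:122568015-122573554), stood at 511, 471, 478, 311 and 418 after water and at 805, 479 and 943 after ethanol. M10 and M12 were above all water libraries while M11 lay within their range, so the Cdt1 groups overlapped. Cdt1 rose 1.65-fold (log2 0.73 ± 0.20, adjusted p = 0.0403).

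Among the 6 MCM helicase subunits only Mcm5 was called. Mcm5 (chr8:75109569-75128439) stood at 109, 90.0, 83.1, 46.9 and 99.9 after water and 29.0, 40.8 and 53.6 after ethanol, with M12 above M4, so the groups overlapped. It fell 2.04-fold (log2 -1.03 ± 0.29, adjusted p = 0.0414). The others ran from -0.35 for Mcm4 to -0.02 for Mcm3 on the log2 scale, and none passed. Mcm2 stood at 1029, 874, 959, 708 and 754 after water and 605, 690.4 and 808 after ethanol, with M12 within the water range, and its log2 fold change was -0.30 ± 0.14 (adjusted p = 0.239). Gins2, a subunit of the replicative helicase complex, had -0.33 ± 0.28.

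The remaining S-phase regulators did not pass. Pcna, the sliding clamp of DNA polymerase, stood at 3272, 2822, 2064, 1575 and 2431 after water and 1525, 2133 and 2328 after ethanol. M10 was the lowest of all 8 libraries and the other two lay within the water range (log2 -0.26 ± 0.21, adjusted p = 0.539). E2f1, an activating E2F factor, stood at 339, 292, 238, 170.1 and 203 after water and 183, 181 and 223 after ethanol, with overlapping groups and a log2 fold change of -0.31 ± 0.21. Ccne2, an E-type cyclin that drives S-phase entry with Cdk2, ranged widely after water, at 1394, 1377, 1172, 733 and 423. Its ethanol values of 490.2, 715 and 770.2 lay inside that range (log2 -0.53 ± 0.40). Ccne1 and Cdk2 had log2 fold changes of -0.26 ± 0.25 and -0.10 ± 0.11.

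For G1 entry, Ccnd1 (cyclin D1) varied widely between libraries: it stood at 584, 212, 902, 229.9 and 233 after water and 150.1, 142 and 294 after ethanol. M1 and M3 were high, the ethanol values overlapped the rest, and the log2 fold change was -0.96 ± 0.50 (adjusted p = 0.301). Cdk4, its kinase partner, stood at 2375, 2339, 1962, 1734 and 2837 after water and 1606, 2057 and 1941 after ethanol, with overlapping groups and a log2 fold change of -0.26 ± 0.15. Ccnd2, another D-type cyclin, had -0.30 ± 0.28.

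Among the mitotic genes the lowest adjusted p belonged to Cdc20, the activator of the anaphase-promoting complex (chr4:118432901-118437352). It stood at 999, 1127, 1141, 494 and 1016 normalized counts after water and 421, 313 and 476 after ethanol. M4 was by far the lowest water library and still above M12, the highest ethanol library. Cdc20 fell 2.30-fold, from 956 ± 266 (SD, n = 5) to 403 ± 83.2 (SD, n = 3; log2 -1.20 ± 0.25, adjusted p = 0.00885).

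Plk1, the Polo kinase of mitotic entry and spindle assembly (chr7:122159439-122169873), stood at 753, 847, 765, 387 and 562 after water and 230.0, 322 and 353 after ethanol. The groups did not overlap, and Plk1 fell 2.15-fold (log2 -1.10 ± 0.25, adjusted p = 0.0159). Ccnb1, the cyclin B1 partner of Cdk1 (chr13:100778650-100786570), stood at 998, 1312, 1147, 642 and 809 after water and 461, 487 and 551 after ethanol, again without overlap, and fell 1.91-fold (log2 -0.93 ± 0.25, adjusted p = 0.0329). Tpx2, which activates Aurora A on the spindle (chr2:152847964-152895321), stood at 794, 1018, 957, 599 and 588 after water and 321, 497 and 469.9 after ethanol. Its groups did not overlap and it fell 1.83-fold (log2 -0.87 ± 0.24, adjusted p = 0.0406).

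Ube2c, the ubiquitin-conjugating enzyme of the anaphase-promoting complex (chr2:164769898-164778822), stood at 992, 1116, 1039, 501 and 844 after water and 447, 492 and 536 after ethanol. M12 was above M4, so the groups overlapped, and Ube2c fell 1.76-fold (log2 -0.82 ± 0.22, adjusted p = 0.0320). Annotated exons of Cdc20 and Ube2c overlap those of Elovl1 and Tnnc2 on the opposite strand. Neither of those was called (adjusted p = 0.625 and 0.376), and the strand setting of the counting is not given in the sources used here.

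The other 13 mitotic genes were not called, although all were below 0. Mki67, the gene of the Ki-67 proliferation antigen, stood at 1576, 2139, 2376, 1064 and 1630.1 after water and 741, 871 and 1185 after ethanol. Only M4 among the water libraries lay below M12, and the log2 fold change was -0.89 ± 0.27 (adjusted p = 0.0602). Top2a, the topoisomerase that untangles chromosomes, stood at 1774, 1910.4, 2487, 696 and 1762 after water and 731, 625 and 1021 after ethanol, with M4 within the ethanol range and a log2 fold change of -1.04 ± 0.32 (adjusted p = 0.0662). Cdk1, the kinase of mitotic entry, stood at 1357, 1459, 1213, 839.8 and 1127 after water and 662, 841 and 855 after ethanol, with M4 again inside the ethanol range (log2 -0.59 ± 0.20, adjusted p = 0.0952). Without overlap but not called were Ccnb2 (-0.62 ± 0.22), Ccna2 (-0.69 ± 0.22) and Aurka (-0.86 ± 0.26), which encode cyclins B2 and A2 and Aurora A. The remaining 7, the checkpoint kinases Bub1 and Bub1b, Aurkb, Birc5, Cenpa of the centromere, the spindle motor Kif11 and the transcription factor Foxm1, ran from -0.87 to -0.38.

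Counted by overlap, 1 member lay wholly higher and 8 wholly lower after ethanol in luciferase livers, 7 of the 8 being mitotic. Over all genes tested the shares were 8.32% wholly higher and 6.39% wholly lower.

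**Figure D2:**
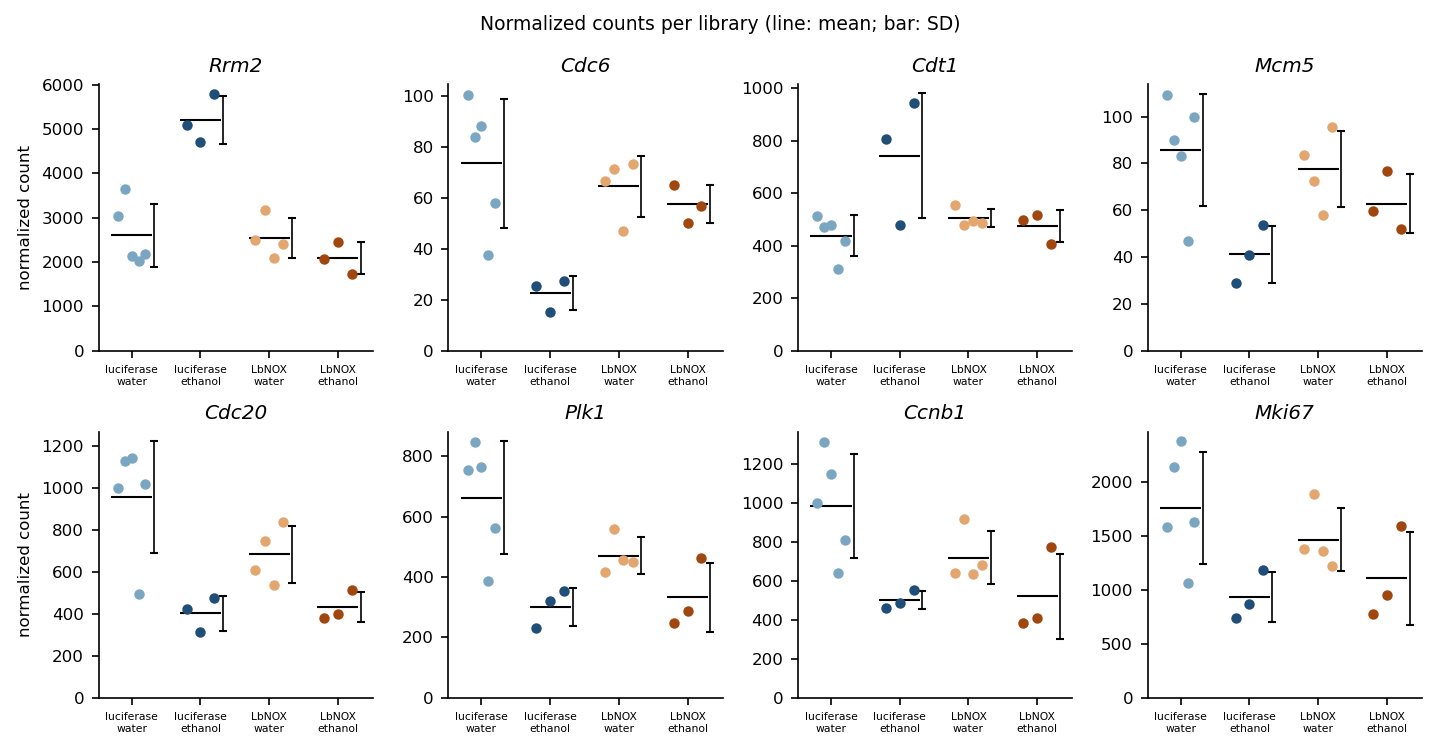
Normalized counts of 8 cell cycle genes in the 15 libraries by group (n = 5, 3, 4 and 3 from left to right); points are libraries, lines are means and bars are SD. Rrm2 stands apart in the luciferase ethanol libraries at 4716 to 5800.4, and Cdc6 at 15.2 to 27.4, while the luciferase ethanol libraries lie below the luciferase water libraries for Cdc20, Plk1 and Ccnb1.

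Cell cycle genes outside the set were tested in the same fit. These lists were drawn up with earlier results of these data known, so their direction is not independent evidence. Of 32 other mitotic genes, 12 were called lower and none higher, beside 3.13% and 4.62% of all genes. The median log2 fold change of these 32 was -0.92, with 31 of 32 below 0. The 4 of smallest p were Cks2, a Cdk-binding protein (-0.74 ± 0.15, adjusted p = 0.00689), Kif20a, a motor of cytokinesis (-1.13 ± 0.23, adjusted p = 0.00824), Ect2 (-1.40 ± 0.31, adjusted p = 0.0135) and Racgap1 (-0.98 ± 0.23, adjusted p = 0.0173), the last pair acting on the cleavage furrow. Of 28 other S-phase genes, 3 were called lower and none higher, with a median of -0.30. They were E2f8, a repressor E2F factor (-1.40 ± 0.22, adjusted p = 0.00162), Rpa2 of the single-strand binding complex (-0.87 ± 0.22, adjusted p = 0.0260) and Fen1, the flap nuclease of replication (-0.74 ± 0.20, adjusted p = 0.0314).

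E2f8 stood at 1331, 1342, 1058, 959 and 1003 after water and 266, 541 and 542 after ethanol in luciferase livers. Each ethanol library was far below the lowest water library. Among cell cycle inhibitors and brakes, 2 of the 15 tested were called, both higher, beside 4.62% of all genes called higher. The 2 were the stress-induced Gadd45b (1.20 ± 0.23, adjusted p = 0.00524) and Gadd45a (1.12 ± 0.24, adjusted p = 0.0110). Gadd45a stood at 122, 140.0, 126, 133 and 186 after water and 457, 254 and 242 after ethanol, without overlap. Cdkn1a, which encodes the p21 inhibitor, had a log2 fold change of 0.71 ± 0.31 and did not pass (adjusted p = 0.207). None of 12 growth entry genes, among them Myc, Jun and Fos, was called.

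Markers of T and NK cells were summed in each library. Their summed normalized counts were 127.8 to 354 after water and 102.9 to 122.1 after ethanol in luciferase livers. The groups did not overlap, but the margin was narrow, M4 being at 127.8 and M12 at 122.1. Sums over 10 markers at this level rest on few reads. Of the 9 tested markers of 10, 1 was called lower, beside 3.13% of all genes: Nkg7 (-2.36 ± 0.68, adjusted p = 0.0486). None of these markers was at 0 in every library. Their median log2 fold change was -0.92, with 8 below 0 and Cd4 at 0.04. Kupffer cell and macrophage markers summed to 1210 to 3076 after water and 1033 to 1340 after ethanol, with 0 of 6 called. The other marker lists had no gene called either. Their median log2 fold changes were 0.17 for hepatocyte, 0.43 for neutrophil, 1.06 for cholangiocyte and 0.10 for stellate markers. Medians were -0.22 for endothelial and -0.44 for erythroid markers, and the 1 tested B cell marker had -0.39. The part of any cell type in the mitotic result was not tested.

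The count of calls depended on single libraries, both among members and over all genes. All genes called numbered 1052 in the main fit, 1217 without M4, 446 without M10 and 985 without M3, M8 and M15 together. Without M4, the water library lowest in 17 of 18 mitotic and 17 of 18 S-phase genes, 17 members were called, 14 of them mitotic and lower. Without M10, 3 members were called (Rrm2, Cdc6 and Cdc20), 1 of them mitotic, and none of the 32 other mitotic genes (24 without M4). Without M15, 12 members were called, 8 of them mitotic. Without M1, M2, M3 or M11, 4 or 5 members were called, 2 of them mitotic, without M12 3 mitotic members were, and without M3, M8 and M15 together 7 were, 5 of them mitotic and lower. The calls of Rrm2, Cdc6 and Cdc20 held in each of the 15 fits without a library and under each of 9 other settings, and that of Plk1 was lost only without M10 (adjusted p = 0.107). Those of Ccnb1 and Ube2c were lost without M1, M2, M3, M10, M11 or M12, that of Tpx2 without any of these or M6, that of Mcm5 in 9 of the 15 fits (M1 to M3, M5 to M7, M10, M11 and M13) and that of Cdt1 in 10 of the 15 (M2 to M7, M10 and M12 to M14). Outside the set, E2f8 and Gadd45b kept their calls in all 15 fits. Cks2, Kif20a, Ect2 and Gadd45a lost theirs without M10, Racgap1 without M10 or M11, Rpa2 without these or M2, Fen1 without M1, M2, M3, M10 or M11, and Nkg7 in 12 of the 15 fits.

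In LbNOX livers no cell cycle gene was called between ethanol and water. By limma 0 of 39 members passed, beside 0.00737% of all genes tested, which is 1 gene, and 8 members had an unadjusted p below 0.05, beside 11.6% of all genes. On the recovered reads edgeR called 1 gene and DESeq2 282 genes, and 0 members were among them in either. The mitotic genes were nonetheless all below 0, 18 of 18, with a median log2 fold change of -0.47 and a range of -0.81 to -0.08. The S-phase genes had a median of -0.14, with 14 of 18 below 0, the G1 entry genes 0.34 and all genes 0.00. Of the 32 other mitotic genes 0 were called, and 32 of 32 were below 0 with a median of -0.33.

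The 3 members of smallest p were Tk1, Birc5 and Cdc20. Tk1 stood at 424, 477, 296 and 629 after water and 279.5, 280.3 and 279 after ethanol. The 3 ethanol libraries were nearly equal and below every water library (log2 -0.65 ± 0.22, adjusted p = 0.264). Birc5, which encodes survivin of the chromosomal passenger complex, stood at 352, 466, 262 and 470.0 after water and 212, 215 and 317 after ethanol, with M15 above M8 (log2 -0.63 ± 0.25, adjusted p = 0.361). Cdc20 stood at 610.4, 748, 537 and 839 after water and 382, 397 and 513 after ethanol, without overlap (log2 -0.66 ± 0.26, adjusted p = 0.363).

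None of the 9 genes called in luciferase livers was called here. Rrm2 stood at 2492, 3163, 2102 and 2413 after water and 2060.4, 2456 and 1733 after ethanol in LbNOX livers. The groups overlapped, and the log2 fold change was -0.29 ± 0.21. Cdc6 stood at 66.5, 71.1, 47.0 and 73.1 after water and 65.0, 50.2 and 56.8 after ethanol, with a log2 fold change of -0.15 ± 0.33. Cdt1 stood at 555, 479.7, 496 and 486 after water and 499.5, 517 and 405 after ethanol, with -0.09 ± 0.21. All of these groups overlapped. Mcm5 stood at 83.8, 72.7, 57.8 and 95.8 after water and 59.5, 76.7 and 52.0 after ethanol (-0.29 ± 0.30), also with overlap.

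Mitotic values after ethanol in LbNOX livers were split by library. Plk1 stood at 418, 559, 455 and 451 after water and 249, 288 and 462 after ethanol (log2 -0.54 ± 0.27). Ccnb1 stood at 638, 917, 634 and 680.4 after water and 383, 407 and 773 after ethanol (log2 -0.52 ± 0.26). In both, M13 and M14 were below every water library and M15 was inside the water range. The same held for Mki67, at 1375, 1886, 1363 and 1222 after water and 778, 947 and 1590.0 after ethanol (log2 -0.45 ± 0.28). Top2a stood at 1117, 1348, 1345 and 1319 after water and 757, 929 and 1434 after ethanol (log2 -0.35 ± 0.34), with M15 above every water library. Cdk1 stood at 908, 1222, 770.1 and 1007 after water and 728, 808 and 1195 after ethanol (log2 -0.11 ± 0.21), with M15 close to M7, the highest water library. For Ube2c the values were 571, 777, 629.9 and 746 after water and 462, 418 and 563 after ethanol without overlap (log2 -0.50 ± 0.23), and for Tpx2 523, 743, 526 and 503 after water and 371, 373 and 659 after ethanol with M15 inside the water range (log2 -0.33 ± 0.25).

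M15 was the highest of its 3 libraries in 18 of 18 mitotic genes but in 5 of 18 S-phase genes. It was also the library of its group with the highest summed T and NK (249), Kupffer (2186) and endothelial (3080) markers. The same held for its stellate (2543), cholangiocyte (1694), erythroid (6959) and hepatocyte (763374) markers, but not for B cell or neutrophil markers. The part of any cell type in the mitotic values was not tested. Without M15 the mitotic median was -0.69, and without M13 it was -0.27.

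The regulators of earlier phases did not pass in LbNOX livers either. Ccne2 stood at 1049, 1048, 775 and 476 after water and 1699, 798 and 1839 after ethanol, M13 and M15 being above all water libraries and M14 within them (log2 0.76 ± 0.42, adjusted p = 0.507). Pcna stood at 2935, 2818, 2221 and 2608 after water and 2817, 2571 and 2059 after ethanol, Mcm2 at 944, 852, 879 and 732 after water and 953, 885 and 819 after ethanol, and E2f1 at 309, 298, 216 and 291 after water and 327, 276 and 235 after ethanol. These groups overlapped, with log2 fold changes of -0.10, 0.06 and 0.00. Ccnd1 stood at 251, 225, 599.9 and 179 after water and 418, 235 and 478 after ethanol (log2 0.37 ± 0.53), with M8 the highest. Cdk4 stood at 2380.1, 2131, 2028 and 2667 after water and 1846, 1995 and 1716 after ethanol, without overlap (log2 -0.31 ± 0.16, adjusted p = 0.483). In all, 7 members lay wholly lower after ethanol and 0 wholly higher, beside 5.49% and 5.42% of all genes. They were Cdk4, Tk1, Mcm3, Mcm6, Rrm1, Cdc20 and Ube2c.

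**Figure D3:**
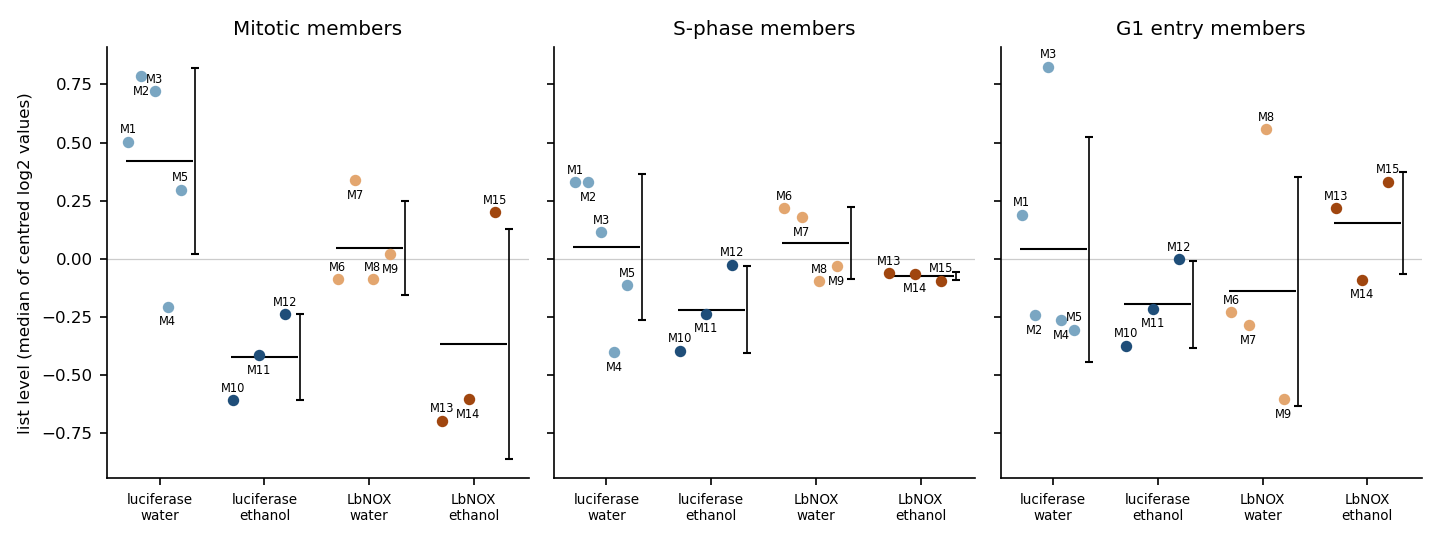
Level of each class of member in the 15 libraries, as the median over its genes of log2(normalized count + 1) centred on each gene's mean; lines are group means and bars are SD (n = 5, 3, 4 and 3 from left to right). Mitotic levels run from -0.21 to 0.79 in luciferase water and from -0.61 to -0.24 in luciferase ethanol libraries, with M15 at 0.20 apart from M13 at -0.70 and M14 at -0.60.

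Levels of the classes were also read in each library. The level of a class is the median over its genes of the log2 value after each gene's mean over the 15 libraries is subtracted, as in the plot of class levels. Mitotic levels were 0.50, 0.79, 0.72, -0.21 and 0.30 in luciferase water libraries and -0.61, -0.42 and -0.24 in luciferase ethanol libraries. The ethanol libraries all lay below the water libraries, M12 by a narrow margin below M4. In LbNOX livers they were -0.09, 0.34, -0.09 and 0.02 after water and -0.70, -0.60 and 0.20 after ethanol, where M15 lay within the water range.

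S-phase levels were 0.33, 0.33, 0.11, -0.40 and -0.11 in luciferase water and -0.40, -0.24 and -0.03 in luciferase ethanol libraries, with overlap. In LbNOX livers they were 0.22, 0.18, -0.10 and -0.03 after water and -0.06, -0.06 and -0.09 after ethanol. The mitotic level minus the S-phase level was 0.37 ± 0.18 (SD, n = 5) in luciferase water and -0.20 ± 0.02 (SD, n = 3) in luciferase ethanol. It was -0.02 ± 0.20 (SD, n = 4) in LbNOX water and -0.29 ± 0.51 (SD, n = 3) in LbNOX ethanol.

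**Figure D4:**
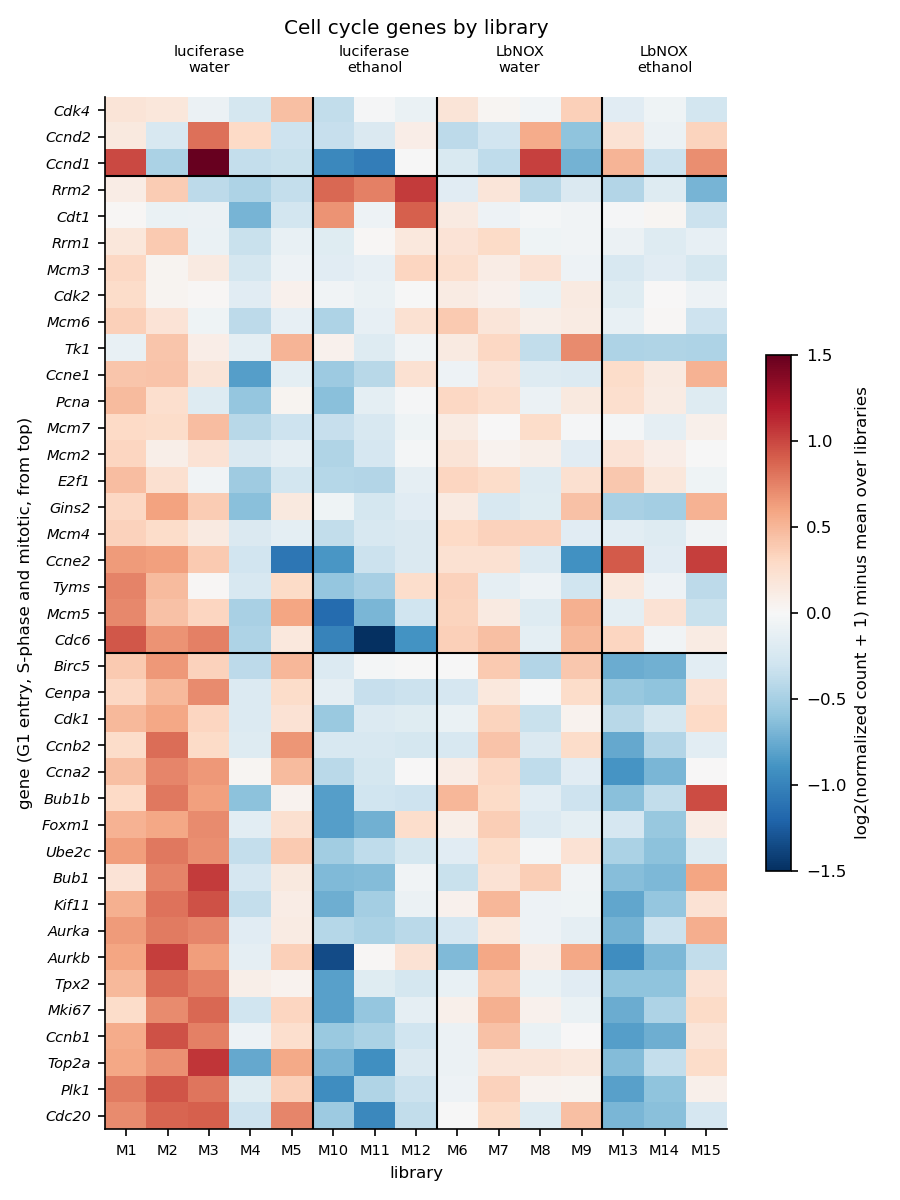
Heat map of the 39 genes (rows, in the order G1 entry, S phase and mitotic from the top) in the 15 libraries (columns, by group); colour is log2(normalized count + 1) minus the gene's mean over the libraries. Rrm2 is the row that is red in all 3 luciferase ethanol columns, and M15 is higher than M13 and M14 in 18 of 18 mitotic rows.

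LbNOX against luciferase after water asks what the oxidase did without ethanol, and no cell cycle gene was called. By limma 0 of 39 members passed, as did 0% of all 13570 genes, of which 440 had an unadjusted p below 0.05 together with 1 member. DESeq2 called 18 genes and edgeR 0, and neither called a member. No member had groups without overlap, beside 0.317% of all genes wholly higher and 0.619% wholly lower. The mitotic median was -0.33 with 18 of 18 below 0, the S-phase median 0.02 and the G1 entry median -0.33, beside 0.01 over all genes.

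The 3 members of smallest p were all mitotic. Ccna2 stood at 806, 979.8, 926, 602 and 817 in luciferase and 634, 730.5, 449.7 and 520.3 in LbNOX livers, with overlap (log2 -0.51 ± 0.20, adjusted p = 1.00). Aurka stood at 701, 774, 746, 399 and 489.7 in luciferase and 379, 504, 427 and 411 in LbNOX livers (log2 -0.49 ± 0.24), with M4 and M5 inside the LbNOX range. Tpx2 had a log2 fold change of -0.44 ± 0.22. Rrm2 and Cdc6 differed little, with log2 fold changes of -0.01 ± 0.18 and -0.13 ± 0.29.

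LbNOX against luciferase after ethanol had 2 members called, both S-phase, and no mitotic gene. Of the 39 members this was 1 higher and 1 lower, no larger a share than the 6.06% of all genes tested (2.24% higher and 3.82% lower). Rrm2 was 2.51-fold lower in LbNOX livers (log2 -1.33 ± 0.22, adjusted p = 0.00360), with all 3 LbNOX libraries below all 3 luciferase libraries. Cdc6 was 2.53-fold higher (log2 1.34 ± 0.35, adjusted p = 0.0361), and its groups did not overlap either. The call of Rrm2 held in each of the 15 fits without a library. That of Cdc6 was lost in 8 of them, those without M6, M7 or any of the ethanol libraries M10 to M15 (highest adjusted p = 0.126), and without M3, M8 and M15 together.

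Among members that were not called, Ccne2 (log2 1.07 ± 0.45), E2f1 (0.51 ± 0.23), Mcm2 (0.34 ± 0.16) and Mcm4 (0.14 ± 0.17) lay wholly higher and Tk1 (-0.40 ± 0.23) wholly lower in LbNOX livers. With Cdc6 and Rrm2 these made 5 of the 39 members wholly higher and 2 wholly lower, all of them S-phase. These were no larger shares than the 14.1% and 15.4% of all genes. Cdt1 had a log2 fold change of -0.60 ± 0.23 and did not pass (adjusted p = 0.140). The medians were 0.10 over the mitotic genes, 0.15 over the S-phase genes and 0.31 over the G1 entry genes, and 0.00 over all genes. The mitotic median was -0.17 without M15 and -0.038 without M10.

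Outside the set, E2f8 was higher in LbNOX livers after ethanol, at 1183, 872 and 1108 beside 266, 541 and 542 in luciferase livers (log2 1.29 ± 0.25, adjusted p = 0.00839). It was the only gene called of the 28 other S-phase genes, and 0 of the 32 other mitotic genes were called. Gadd45a was lower, at 66.4, 91.5 and 62.9 beside 457, 254 and 242 (log2 -2.05 ± 0.27, adjusted p = 0.000796), as was Gadd45b (log2 -0.95 ± 0.26, adjusted p = 0.0436). Btg2, an antiproliferative gene, was higher (log2 1.29 ± 0.33, adjusted p = 0.0335), so 3 of the 15 inhibitors and brakes were called, beside 6.06% of all genes. Of the 12 genes listed under growth entry 2 were called, both higher, beside 2.24% of all genes called higher. The 2 were the AP-1 factor Jun (1.14 ± 0.24, adjusted p = 0.0130) and cyclin G1, Ccng1 (0.59 ± 0.15, adjusted p = 0.0371). Cyclin G1 is not one of the D-type cyclins, and its place in this list is a choice made here, not a result. The calls of E2f8 and Gadd45a held in all 15 fits without a library, whereas that of Jun was lost without M10, M12 or M13 and that of Btg2 without these or M15. Those of Ccng1 and Gadd45b were lost in 7 and 8 of the 15 fits.

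The difference of the ethanol effects, LbNOX minus luciferase, was tested directly, and 1 member was called. The log2 difference for Rrm2 was -1.32 ± 0.29 (adjusted p = 0.0339), beside 1.67% of all genes called (0.427% higher and 1.25% lower). This call was lost in 8 of the 15 fits without a library (highest adjusted p = 0.109), those without M3, M6, M7, M9, M10, M12, M13 or M15. Cdc6 had a difference of 1.46 ± 0.45 (adjusted p = 0.132), Ccne2 1.29 ± 0.58 and Cdt1 -0.82 ± 0.29 (adjusted p = 0.196), none of them called.

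No mitotic gene was called for the difference, and an ethanol effect on these genes was thus not shown to differ between the constructs. The largest mitotic value was that of Aurka (0.77 ± 0.37, adjusted p = 0.360), followed by Top2a (0.69 ± 0.47) and Bub1b (0.62 ± 0.52). In direction, 17 of 18 mitotic genes were above 0 with a median of 0.46, beside -0.01 over all genes, but the median was 0.14 without M15 and 0.03 without M3, M8 and M15 together. The S-phase median was 0.14. Of the inhibitors and brakes, Gadd45a was called (log2 difference -1.86 ± 0.35, adjusted p = 0.0181), and this was lost without M10, M13 or M15 and without M3, M8 and M15 together.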

How the data were processed

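Liver RNA of 15 libraries was sequenced from KAPA mRNA libraries, per the labels' protocols. Salmon 1.5.1, DESeq2 1.30.1 and the mm10 build are named, with no role, per the submitters' processing notes. The unit of the table is a signal: read counts that the authors divided by a factor of each library, called normalized counts here. All 244950 values lay within 0.01 of whole reads (100%) once multiplied back, which gave the depth and the reads for the count tests. Columns carry a group and a name from M1 to M15 but no replicate number. The strand setting of the counting is not given in the sources used here.

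The test was limma 3.58.1 in R 4.3.3 on log2(normalized count + 1), with its trend and robust options. A single fit held all 4 groups and the 13570 genes that reached 10 in 3 libraries or more. P-values were adjusted over all genes by the Benjamini-Hochberg method, and genes with an adjusted p below 0.05 are called. Fold changes are on the log2(value + 1) scale, with limma's standard error after ±. Alternatives were a pseudocount of 0.5 or 5, no filter, quantile normalization, no trend, only the groups compared, tests of the recovered reads with edgeR 4.0.16 or with DESeq2 1.42.0, and each library left out.

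The members and lists were chosen with earlier results of these data known, and no list was tested as a set. Members named with library values are those called in any comparison, Mki67, Top2a, Ccnb1, Cdk1, Cdc20, Mcm2, Mcm5, Pcna, Rrm2, Ccne2, Ccnd1, Cdk4 and E2f1, and the 3 of smallest p where none was called. From other lists up to 4 called genes of smallest p are named, and Cdkn1a was named after its values were seen. Gene positions are from GENCODE vM21 on GRCm38.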

Additional observations from a re-analysis of the deposited data

Results flagged for a closer look

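On log2 values, in 6 of 84 sets (78 of a member and 6 of a class level, each in a water group of 4 or 5 libraries), the most extreme library stood apart by a share of the group's range above Dixon's limit. Chance alone marks about 1 in 20 sets. In luciferase water libraries M4 was the low one for Top2a, with a gap of 0.730 of the range, and for Cdc20, with 0.841. In LbNOX water libraries M8 was low for E2f1 (0.834), M9 low for Mcm4 (0.908), M6 low for Top2a (0.886) and M7 high for Tpx2 (0.884). On the normalized counts themselves 4 of the 6 were above the limit, and Top2a in luciferase water (0.595) and E2f1 (0.808) were not. Top2a stood at 1774, 1910.4, 2487, 696 and 1762 in luciferase water libraries. Mcm4 stood at 905, 932, 935 and 653 in LbNOX water libraries. Leaving out M4 raised the mitotic genes called in luciferase livers from 5 to 14 of 18, and all genes called there from 1052 to 1217.

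The ethanol effect on Rrm2 differed between LbNOX and luciferase livers by -1.32 on the log2 scale in the test of the difference (adjusted p = 0.0339 in limma). This call was kept in only 7 of the 15 fits without a library (highest adjusted p = 0.109). It was also lost without the trend and without M3, M8 and M15 together. The ethanol effect on Rrm2 was 1.03 ± 0.20 in luciferase and -0.29 ± 0.21 in LbNOX livers. The 3 luciferase ethanol libraries were above all of the other 12.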

How the results depend on the processing

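No called gene of the lists changed direction under an alternative, but a pair of class medians near 0 did. The mitotic median for LbNOX after ethanol was 0.10, and -0.17 without M15, -0.17 without M3, M8 and M15, and -0.038 without M10. The S-phase median for LbNOX after water was 0.02, and -0.0055 in edgeR, -0.004 in DESeq2, -0.06 without M4 and -0.0177 without M5. Counts are given in the order of the report: ethanol in luciferase livers, ethanol in LbNOX livers, the constructs after water, the constructs after ethanol, and the difference. DESeq2 called 1621, 282, 18, 1349 and 633 genes, and 16, 0, 0, 2 and 2 members. With only the groups compared, 614 genes and 5 members were called in luciferase livers, 3 genes in LbNOX livers and 1 member for LbNOX after ethanol; the difference has no such fit. Without the trend, 0 genes were called in LbNOX livers, and 151 genes and 0 members for the difference. Without M3, M8 and M15, chosen after seeing the data, the genes called were 6 in LbNOX livers, 1 for LbNOX after water and 513 for LbNOX after ethanol, with 1 member there and 0 for the difference, whose mitotic median was 0.0274. The cause of these shifts was not tested.

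With each library left out in turn, genes called ranged from 446 to 1217, 0 to 28, 0 to 1, 299 to 944 and 64 to 403 in the same order, and members from 3 to 17, 0 to 0, 0 to 0, 1 to 2 and 0 to 2. Mitotic medians ranged from -0.997 to -0.690, -0.69 to -0.27, -0.50 to -0.25, -0.17 to 0.24 and 0.14 to 0.61, and S-phase medians from -0.40 to -0.20, -0.23 to -0.12, -0.06 to 0.09, 0.07 to 0.21 and 0.03 to 0.29. No paired analysis was possible because the columns carry no replicate number. Cdc6 and Mcm5, at 15.2 to 100.1 and 29.0 to 109.1 normalized counts, rest on the fewest reads of the called members.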

Other observations

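Neighbours of the called members on the chromosome were read from the same fit. Of 36 tested genes, 2 on each side of the 9 members called in luciferase livers, 2 were called between ethanol and water there (5.56%, beside 7.75% of all genes) and 0 in LbNOX livers. They were Slc30a5 beside Ccnb1 (log2 fold change -0.62, adjusted p = 0.0288 in limma) and Ccm2l near Tpx2 (1.48, adjusted p = 0.00399). The neighbours of Rrm2 (Klf11, Cys1, Kidins220 and Id2) were not called, with log2 fold changes of -0.08, 0.00, 0.12 and -0.55. Aprt beside Cdt1 had 0.54 and an adjusted p of 0.0670.

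Annotated exons of 9 members overlap those of another tested gene, in every case on the opposite strand: Cdk4, Ccne2, Cdk2, Gins2, Mcm7, Tk1, Cdc20, Ccna2 and Ube2c. How reads were shared there is not given in the sources used here.

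Of the stress-induced brakes, Gadd45b stood at 252, 269, 162, 218 and 174 in luciferase water, 349.8, 556 and 592 in luciferase ethanol, 279, 313, 213 and 212 in LbNOX water and 332, 231 and 207 in LbNOX ethanol libraries. It was called between ethanol and water in luciferase livers and not in LbNOX livers, and the difference of the effects itself was not called (adjusted p = 0.0936 in limma). Cdkn1a, the gene of p21, stood at 4058, 3585 and 3842 in luciferase ethanol and 4424, 3205 and 3822 in LbNOX ethanol libraries, beside 3052, 2594, 3111, 1711 and 1636 and 1522, 2288, 3455 and 1082 after water. It was not called in either ethanol comparison (adjusted p = 0.207 and 0.257).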
